A study of Mus musculus with 12 samples.

Results

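The sarcomeric myosin heavy chains are the motor proteins of the thick filament. The genes described are Myh7, Myh7b, Myh6, Myh2, Myh1, Myh4, Myh3 and Myh8, found by their symbols, which makes 8 of the 56162 features in the deposited tables. They were measured by RNA sequencing in 12 libraries of myofibers from male C57BL/6J mice, for which the labels give an age of 8 weeks and do not say whether that age precedes the training. The groups, with 3 libraries each, were type I fibres of trained mice, type I fibres of untrained mice, type IIb fibres of trained mice and type IIb fibres of untrained mice. Type I fibres came from soleus and type IIb fibres from extensor digitorum longus (EDL), so that fibre type, muscle and digestion time (90 min for soleus and 60 min for EDL) changed together. Training was treadmill running for 6 weeks on 5 days a week, 60 min a day at 12 to 16 m/min, and muscles were taken 3 days after the last run. Each fibre was cut, one piece served to identify the heavy chain protein, and the remainder was sequenced. The level of Myh7 and Myh4 between fibre types is therefore a check of the labels and not a finding. Since the labels do not tie libraries to separate animals, the p-values measure the spread between these libraries, which may be partly technical.

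As background, an adult mouse fibre is named after the heavy chain that it holds: Myh7 encodes the slow chain of type I fibres and of the heart ventricle, and Myh2, Myh1 and Myh4 encode the fast chains of type IIa, IIx and IIb fibres. Myh6 encodes the alpha cardiac chain, Myh7b a slow-tonic chain found in heart, slow muscle and extraocular muscle, and Myh3 and Myh8 the embryonic and neonatal chains of developing and regenerating muscle. Different heavy chains split ATP and shorten the sarcomere at different speeds, slowest in type I and fastest in type IIb. Endurance exercise is known in rodents for a change of fast fibres away from IIb and towards IIa.

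In these tables (mm10) Myh3, Myh2, Myh1, Myh4 and Myh8 stood in that order on chromosome 11, Myh6 and Myh7 lay side by side on chromosome 14 and Myh7b lay on chromosome 2. Myh6, Myh7 and Myh7b each hold a miRNA outside the exons of their longest transcript. Their mature miRNAs are shown because miR-208a, miR-208b and miR-499 are known to be transcribed with these heavy chains and to act on slow fibre genes in mouse. Sequences are from RefSeq (GRCm38.p6), 5′ to 3′, with the seed (bases 2 to 8) in capitals.
mmu-miR-208a-3p (Myh6), chr14:54949072-54949093, minus strand: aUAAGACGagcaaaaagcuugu
mmu-miR-208b-3p (Myh7), chr14:54975710-54975731, minus strand: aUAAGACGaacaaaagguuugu
mmu-miR-499-5p (Myh7b), chr2:155622893-155622913, plus strand: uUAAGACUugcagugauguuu
The Myh6 and Myh7 miRNAs shared the seed UAAGACG, and that of the Myh7b miRNA was UAAGACU. The features Mir208a, Mir208b and Mir499 were listed with 0 counts in all 12 libraries. Counts on a hairpin in full-length cDNA libraries are not a measure of the mature miRNA.

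Promoter windows of 300 bases (250 before and 50 after the RefSeq start) are shown for the genes at the centre of the results: Myh7 and Myh7b, which were read in type I fibres, and Myh4 and its antisense neighbour Myhas, which were read in type IIb fibres. Capitals mark TATAAA, the E-box CANNTG, the MCAT element CATTCC and the MEF2 element, searched on both strands.
Myh7, chr14:54994577-54994876, minus strand: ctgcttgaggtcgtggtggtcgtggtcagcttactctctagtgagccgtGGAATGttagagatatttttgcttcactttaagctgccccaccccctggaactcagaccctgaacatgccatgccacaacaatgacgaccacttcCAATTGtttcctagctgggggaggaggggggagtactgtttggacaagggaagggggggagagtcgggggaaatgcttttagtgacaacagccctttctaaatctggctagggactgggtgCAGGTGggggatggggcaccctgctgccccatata
Myh7b, chr2:155610993-155611292, plus strand: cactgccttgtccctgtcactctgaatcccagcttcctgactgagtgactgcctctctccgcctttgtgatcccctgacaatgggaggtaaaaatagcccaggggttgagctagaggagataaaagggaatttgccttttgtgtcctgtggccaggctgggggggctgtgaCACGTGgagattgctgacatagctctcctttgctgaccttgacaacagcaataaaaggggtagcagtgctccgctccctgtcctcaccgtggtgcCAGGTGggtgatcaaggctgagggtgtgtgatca
Myh4, chr11:67237562-67237861, plus strand: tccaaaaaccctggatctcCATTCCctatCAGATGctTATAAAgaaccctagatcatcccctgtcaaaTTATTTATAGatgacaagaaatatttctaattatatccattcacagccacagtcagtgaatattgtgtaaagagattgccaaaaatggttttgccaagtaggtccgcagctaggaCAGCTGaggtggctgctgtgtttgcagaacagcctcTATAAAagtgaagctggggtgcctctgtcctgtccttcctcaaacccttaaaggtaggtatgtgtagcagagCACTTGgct
Myhas, chr11:67237232-67237531, minus strand: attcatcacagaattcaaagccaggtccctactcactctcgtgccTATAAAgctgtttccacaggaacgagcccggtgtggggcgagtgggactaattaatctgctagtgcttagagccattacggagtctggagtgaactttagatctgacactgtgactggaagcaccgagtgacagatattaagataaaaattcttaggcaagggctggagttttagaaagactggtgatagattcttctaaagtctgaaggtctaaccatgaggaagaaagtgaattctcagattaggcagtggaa
Among the 8 heavy chain genes, the MEF2 element was found in the windows of Myh4, Myh1 and Myh8, at 182, 211 and 99 bases before the start by the first matching base. Of 32544 promoter windows in the same RefSeq table, 3.16% held it, 13.6% held TATAAA, 14.6% held CATTCC and 72.3% held CANNTG. The MEF2 match in Myh4 overlaps a TATAAA match on the other strand. Matches are letters in a window and not sites shown to be bound, and a window with no match says only that these letters are not in it. For Myh7, RefSeq gives a second overlapping window, which is not shown. It holds no CATTCC match, and its E-boxes lie 183 and 62 bases before its start, so the matches depend on the start used.

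Library totals were 8026397 to 24995288 counts, and 3636 to 14428 genes had at least 10 counts. Levels below are CPM, the counts scaled to a common library size, with TMM scaling, given as library 1, 2 and 3 of a group. The summed CPM of 6 type I fibre markers, without TMM, was 30857 to 52799 in type I and 0.738 to 30.9 in type IIb libraries, and that of 7 type II markers was 305 to 4507 in type I and 79223 to 150069 in type IIb libraries, so all 12 libraries matched their labels. Some libraries stood apart by markers of other cells. The 8 endothelial markers summed to 684 and 418 CPM in type I untrained libraries 1 and 3 and to 147 CPM in type IIb trained library 3, and to at most 35.8 CPM in the other 9. Type I untrained library 1 also had 1616 CPM of erythroid markers, and type I untrained library 3 had 9006 CPM of fibroblast and 4138 CPM of tendon markers. The part of these cells in the levels below was not tested, and in such samples fewer cells of a type and less RNA per cell cannot be told apart. Some of the training differences are given with and without those libraries, and most differences between fibre types only with them.

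Myh7, the slow heavy chain, was read in every type I library and almost nowhere else. Its level was 1313, 164 and 596 CPM in trained type I fibres and 367, 539 and 250 CPM in untrained type I fibres. Without TMM, it took 0.109, 0.0138 and 0.0966% of counts in trained and 0.0525, 0.0575 and 0.0378% in untrained type I libraries. The TMM factors were 0.833, 0.842 and 1.62 in these trained and 1.43, 1.07 and 1.51 in these untrained libraries, so the CPM of Myh7 depends on them. In type IIb fibres it had a single count, in trained library 3 (0.0719 CPM), and 0 counts in the untrained libraries. The untrained type I libraries all lay between the lowest and the highest trained library, so training groups overlapped. By counts, Myh7 ranked between 116 and 688 among the features of a type I library.

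Myh4, the fast IIb heavy chain, was the most abundant heavy chain transcript of the study. In type I fibres its level was 1.61, 0.821 and 1.33 CPM in trained and 0.239, 0 and 0.502 CPM in untrained libraries, from 13, 7 and 30 counts in trained and 4, 0 and 19 counts in untrained libraries. It reached 26987, 102235 and 59298 CPM in trained type IIb fibres and 28338, 55453 and 27712 CPM in untrained type IIb fibres. The trained and untrained type IIb libraries overlapped, and Myh4 ranked from 1 to 9 among all features of these 6 libraries.

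**Figure D1:**
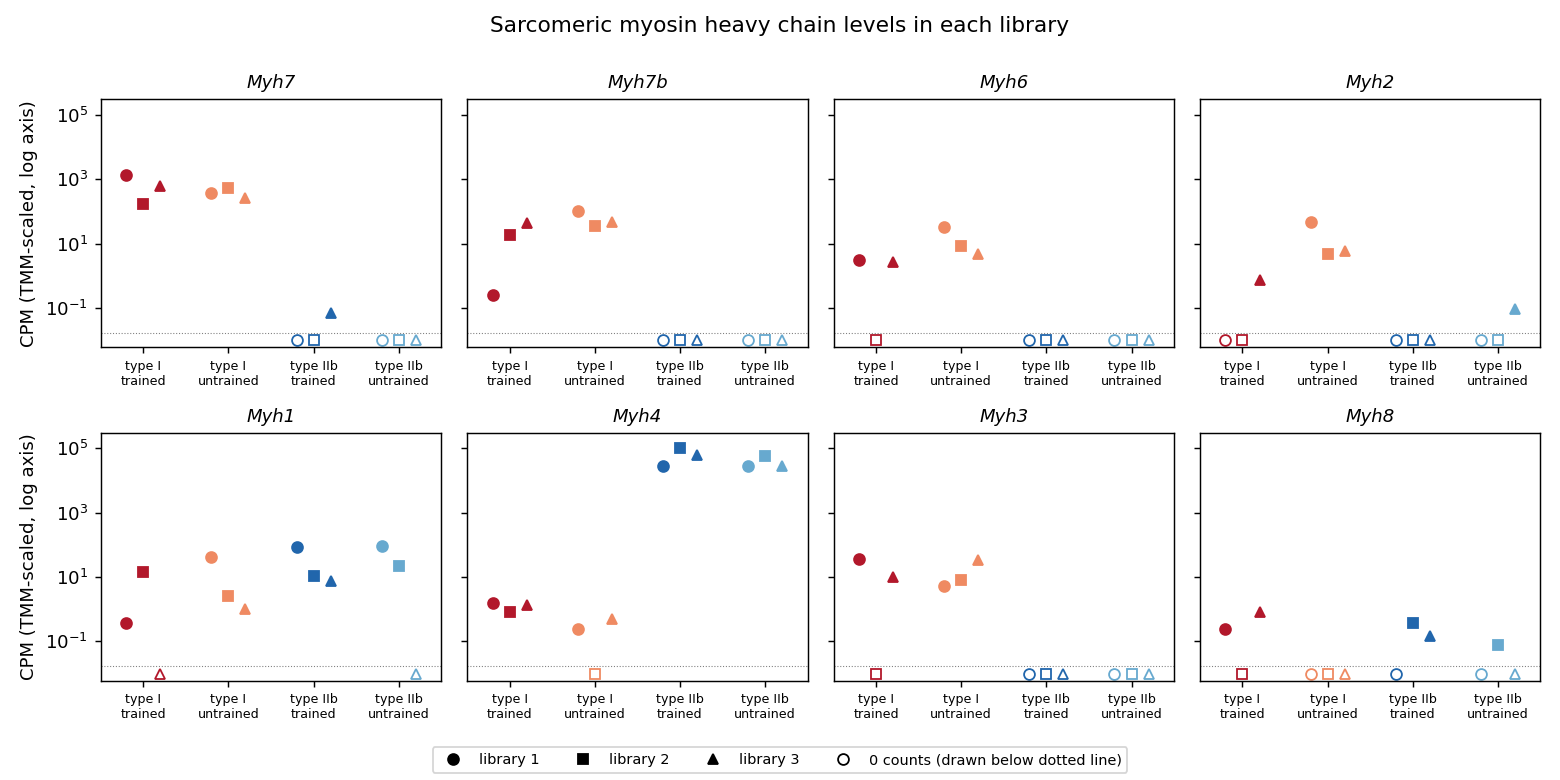
CPM (log axis) of the 8 heavy chain genes in each library, by group, with one symbol per library number and open symbols below the dotted line for 0 counts. Myh7 lay at 164 to 1313 CPM in type I fibres and Myh4 at 26987 to 102235 CPM in type IIb fibres, while Myh7b, Myh6 and Myh3 had no count in type IIb fibres.

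The remaining slow and cardiac genes were also read in type I fibres. Myh7b, the slow-tonic chain, had 0.248, 18.3 and 43.6 CPM in trained type I fibres and 106, 33.8 and 45.9 CPM in untrained type I fibres. Trained library 1 was the exception, with 2 counts of Myh7b beside the highest Myh7 level of all libraries (1313 CPM). Myh6, the alpha cardiac chain, had 3.10, 0 and 2.75 CPM in trained and 32.5, 8.65 and 4.57 CPM in untrained type I fibres, so that each trained library lay below each untrained one. Both genes had 0 counts in all 6 type IIb libraries, where 3 counts over the group are worth 0.110 CPM in trained and 0.0919 CPM in untrained fibres.

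The fast IIa chain gene Myh2 separated by training in type I fibres as well, though at low level. It had 0, 0 and 0.754 CPM (17 counts in all) in trained type I fibres, against 48.1, 4.72 and 6.03 CPM (1100 counts) in untrained type I fibres. In type IIb fibres Myh2 had 0 counts in trained libraries and 1 count in untrained ones. Myh1, the IIx chain, had 0.372, 14.4 and 0 CPM in trained type I, 40.7, 2.65 and 0.978 CPM in untrained type I, 86.0, 10.5 and 7.76 CPM in trained type IIb and 92.2, 22.0 and 0 CPM in untrained type IIb fibres. Its 4 groups overlapped one another, and it was the only heavy chain besides Myh4 with more than 4 counts in any type IIb group.

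Of the developmental chains, embryonic Myh3 was read in 5 of 6 type I libraries and in no type IIb library. Its level was 35.1, 0 and 10.0 CPM in trained type I and 5.32, 7.94 and 32.7 CPM in untrained type I fibres. The highest libraries were trained 1 and untrained 3, which differ in their other markers. In trained library 1 the summed fibroblast markers were 116 CPM and those of regenerating or denervated fibres 12.8 CPM, while in untrained library 3 they were 9006 and 343 CPM. Satellite cell markers summed to 0.722 CPM in trained library 1 and 46.0 CPM in untrained library 3. In type IIb fibres, where Myh3 had 0 counts, the markers of regenerating or denervated fibres summed to 473, 353 and 223 CPM in trained and 3598, 598 and 1894 CPM in untrained libraries. These sums did not overlap between training groups, while single genes did not overlap for 4.73% of all tested genes. No such share was computed for sums of genes. Of the 7 markers, only 4, 4 and 5 had a count in the trained and 3, 3 and 4 in the untrained libraries. In untrained libraries 1 and 2 the 3 with a count were Chrna1, Actc1 and Myl4. For training in type IIb fibres edgeR tested 6 of the 7 and called 0, with a median log2 difference of -0.004. Between fibre types edgeR called only Actc1, lower in type I fibres in untrained and in trained mice. Of all tested genes, 0.204% in untrained and 0.298% in trained mice were called lower. The part of such cells or fibres in the Myh3 level was not tested. Neonatal Myh8 had 20 counts in trained type I (2, 0 and 18), 0 in untrained type I, 4 in trained type IIb and 1 in untrained type IIb fibres, and did not pass the expression filter.

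Between fibre types, edgeR's quasi-likelihood test with Benjamini-Hochberg adjustment over 11747 genes called 2 of the 7 heavy chains that passed the filter in untrained mice, where it called 0.46% of all genes. These were Myh7, where type I exceeded type IIb fibres at least 3670-fold (adjusted p = 8.54e-06, beside 0.255% of genes called higher), and Myh4, 114763-fold lower (adjusted p = 8.58e-05, beside 0.204% called lower). In trained mice the same 2 genes were called, beside 0.536% of all genes (0.238% higher and 0.298% lower). The Myh7 ratio, type I over type IIb, was 17675, with a 95% counting interval of 3172 to 698160 from the single count in type IIb fibres (adjusted p = 9.38e-06), and Myh4 was 46021-fold lower (adjusted p = 1.30e-04). Where a group had no count, 3 counts over it stand in as the floor, which makes the fold a lower bound. Because fibres were chosen by these proteins, the 2 calls describe the sort.

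The other heavy chains were not called between fibre types in edgeR's fit. In untrained mice Myh7b was at least 631-fold (adjusted p = 0.174), Myh3 at least 228-fold and Myh6 at least 133-fold above type IIb in type I fibres (adjusted p = 0.230 for both), and the Myh2 ratio was 523 with a counting interval of 93.7 to 20693 (adjusted p = 0.230). Together with Myh7 and Myh4, 6 of 7 tested chains had libraries that did not overlap, as did 27.7% of all tested genes (22.8% with type I above and 4.88% with type I below). In trained mice Myh7b was at least 264-fold (adjusted p = 0.293), Myh3 at least 118-fold (adjusted p = 0.521) and Myh6 at least 20.1-fold (adjusted p = 0.614) above type IIb in type I fibres. There 3 of 7 had libraries that did not overlap (Myh7, Myh7b and Myh4), as did 10.5% of all tested genes (6.72% with type I above and 3.77% below). Myh7, Myh7b, Myh6, Myh3 and Myh2 passed the filter through their type I libraries only, and Myh4 through its type IIb libraries only. Neither the direction of these genes nor the number without overlap therefore carries weight as a count. Myh1 had a log2 difference, type I minus type IIb, of -1.36 (SE 2.39) in untrained and -2.82 (SE 2.51) in trained mice, with overlapping libraries. DESeq2's Wald test called Myh7, Myh4, Myh7b, Myh6, Myh3 and Myh2 in untrained mice and Myh7, Myh4, Myh7b and Myh3 in trained mice, beside 8.78% of all genes in untrained and 2.95% in trained mice. In untrained mice, limma called 2.80% of all genes on log2(FPKM + 1) and 2.61% on log2(FPKM + 0.1).

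For training in type I fibres, edgeR called 0 of 7 tested heavy chains and 0% of 11747 genes, with 345 genes at an unadjusted p under 0.05, and DESeq2 called 0 of the 7 and 59 of all genes (0.502%). The log2 differences below are trained minus untrained, and the median over all tested genes was -0.28, or -0.57 with DESeq2's size factors. Myh7 had a log2 difference of 0.84 (SE 0.74, unadjusted p = 0.272) and a pooled ratio of 1.93. With DESeq2's size factors in edgeR, the Myh7 difference was 0.53. Myh7b had -1.58 (SE 2.05), Myh6 -2.96 (SE 2.55), Myh3 -0.03 (SE 2.41) and Myh1 -1.58 (SE 2.40), and the adjusted p of edgeR was 1 for every one. Without trained library 1, the Myh7 difference was -0.02, and without type I untrained library 1, that of Myh1 was 1.45, so 1 library decided the direction in each.

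Of the 7 chains, 3 had training groups that did not overlap in type I fibres, as did 11.7% of all tested genes (2.78% with trained libraries above and 8.93% below). Myh2 had a log2 difference of -6.18 (SE 2.94, unadjusted p = 0.0514), or 36.9-fold lower by pooled counts in trained than in untrained fibres. Without untrained library 1, which held the highest endothelial and erythroid markers, it was -4.34, and without the 3 libraries of highest endothelial markers, which leaves 1 untrained type I library, -4.05. Without trained library 3, which held all 17 trained counts, it was -11.04. Myh6 was 5.51-fold lower by pooled counts in trained fibres, and its log2 difference of -2.96 was -1.78 without untrained library 1 and -2.16 without the 3 libraries. Myh4 went the other way, at 3.81-fold higher by pooled counts in trained fibres (log2 difference 2.20, SE 0.81, unadjusted p = 0.0209), on 50 counts in trained and 23 in untrained libraries. However, Myh4 passed the filter through its type IIb libraries, and its SE comes from the fit with those libraries. A fit of only the type I groups tested 6 chains, without Myh4. Leaving out each library in turn gave 1.67 to 3.18 for Myh4, with edgeR's adjusted p between 0.560 and 1. Without the 3 libraries of highest endothelial markers it was 6.74, with 0 Myh4 counts in the 1 untrained type I library that is left, so that this value is no measure of size.

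For training in type IIb fibres, only Myh4 and Myh1 had more than 1 count over the 6 libraries among the 7 chains that passed the filter, so these 2 alone could show a difference. Neither was called by edgeR or DESeq2. Over all 11747 genes edgeR called 0%, with 965 genes at an unadjusted p under 0.05, and DESeq2 called 364 (3.10%). Myh4 had a log2 difference of 0.76 (SE 0.74, edgeR's adjusted p = 0.922), beside a median of 0.36 over all tested genes. Its libraries overlapped, and the difference was 0.21 without trained library 2, which held the highest Myh4 level. Myh1 had -0.13 (SE 2.34, edgeR's adjusted p = 1). The training groups of type IIb fibres overlapped for both, while those of 4.73% of all genes did not (2.82% with trained libraries above and 1.92% below). The training effect in type I minus that in type IIb fibres was 1.44 on the log2 scale for Myh4 (SE 1.07, edgeR's adjusted p = 0.890). Leaving out each library in turn gave 0.99 to 2.44, and leaving out the 3 libraries of highest endothelial markers gave 6.04, again against an untrained type I library with 0 Myh4 counts. The test of this interaction called 0% of genes with edgeR and 3.35% with DESeq2, and no heavy chain with either.

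The makeup of the heavy chain pool was compared per transcript length, as the share of each gene in the summed values of the 8. On the deposited FPKM, Myh7 held 98.7, 87.2 and 92.6% in trained type I libraries and 67.3, 92.0 and 79.8% in untrained type I libraries. Myh7b came next, with 0.0170, 8.88 and 6.18% in trained and 17.7, 5.26 and 13.4% in untrained libraries. The 3 adult fast chains together held 1.37 ± 2.21% in trained and 3.31 ± 4.17% in untrained type I fibres (SD, n = 3 each), a difference of -1.94 percentage points by an exact two-sided permutation test (p = 0.5, the smallest possible being 0.1). Trained library 2 had 3.92%, nearly all of it Myh1, and untrained library 1 had 8.12%, of which Myh2 gave 4.45% and Myh1 3.65%. Without untrained library 1, the difference was 0.466 percentage points. In type IIb fibres the 7 chains other than Myh4 held 0.146 ± 0.225% in trained and 0.155 ± 0.226% in untrained libraries (exact permutation p = 0.9, n = 3 each).

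These shares depend on the length that the authors divided by. That length equalled the mean length of the gene's GENCODE M21 transcripts within 1 base for 98.7% of 55141 identifiers, short annotated transcripts included. For Myh7 it was 2282 bases, where the longest transcript has 6230, so its FPKM was 2.73 times the value per longest transcript. The factor was 2.92 for Myh6 and 2.46 for Myh7b, but 1.01 for Myh4, 1.00 for Myh3, 1.30 for Myh1 and 1.34 for Myh2. Per kilobase of longest transcript, Myh7 held 96.9, 82.8 and 90.8% in trained and 60.8, 90.2 and 73.0% in untrained type I libraries, and Myh3 held 9.86% in untrained library 3, where it had 3.97% by FPKM. The adult fast chains together then held 2.79 ± 4.42% in trained and 6.21 ± 7.72% in untrained type I fibres (SD, n = 3 each, exact permutation p = 0.5). On that scale Myh7 averaged 118 ± 83.3 FPKM in trained and 79.0 ± 16.4 FPKM in untrained type I fibres, and Myh4 averaged 8106 ± 4071 FPKM in trained and 5546 ± 2115 FPKM in untrained type IIb fibres (SD, n = 3 each).

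**Figure D2:**
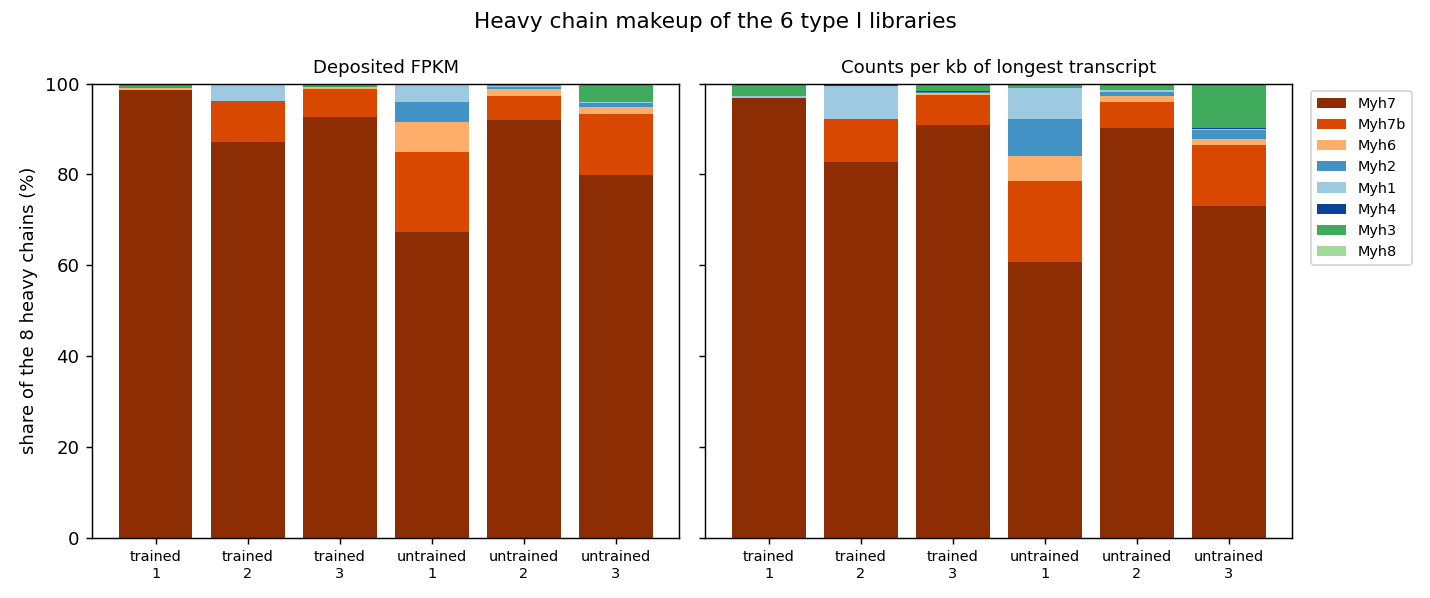
Share (%) of the 8 heavy chains in each type I library, trained then untrained, on the deposited FPKM (left) and on counts per kilobase of longest transcript (right). Myh7 is the largest part of every bar, and the untrained library 1 bar holds the least of it, at 67.3% on the left and 60.8% on the right.

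The chains also share sequence, which limits how reads can be assigned. Of all windows of 50 bases in the longest transcript, 22.2% of Myh7 and 22.6% of Myh6 also occurred in a transcript of another gene, and all 1373 such windows of Myh7 were found in Myh6. The share was 26.7% in Myh1, 26.9% in Myh2, 21.4% in Myh8, 18.9% in Myh4 and 4.81% in Myh3, and 0% in Myh7b. Windows of 100 bases were shared less, at 11.2% in Myh7 and 3.85% in Myh4. How the authors' counting treated such reads is not given in the sources used here, so the low levels of Myh6 in type I fibres and of Myh1 in type IIb fibres are uncertain.

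Summed over the 8 chains, heavy chain transcripts took 0.0166 to 0.113% of all counts in type I libraries and 2.22 to 7.03% in type IIb libraries. The summed level was 736 ± 582 CPM in trained and 512 ± 149 CPM in untrained type I fibres (exact permutation p = 0.7, n = 3 each). It was 62875 ± 37713 CPM in trained and 37206 ± 15826 CPM in untrained type IIb fibres (exact permutation p = 0.4, n = 3 each). Both differences were smaller than the SD of the trained libraries, and without trained library 2 the type IIb difference of 25669 CPM was 5983 CPM.

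The level of the main heavy chain was high or low in the same libraries as that of Ttn, the gene of titin, a giant sarcomere protein with a very long transcript. Ttn had 23531, 1378 and 12756 CPM in trained and 9564, 6440 and 5977 CPM in untrained type I fibres, lowest in trained library 2, where Myh7 was also lowest (164 CPM). In type IIb fibres Ttn had 4313, 39228 and 19665 CPM in trained and 3062, 12501 and 4064 CPM in untrained libraries, and the 3 libraries with the most Ttn were the 3 with the most Myh4. Genes with a longest transcript above 5000 bases took 22.5, 10.0 and 24.4% of nuclear counts in trained and 21.8, 14.3 and 20.0% in untrained type I libraries. In type IIb libraries, with the 8 chains left out, they took 13.0, 17.2 and 16.8% in trained and 10.4, 16.1 and 11.7% in untrained fibres. The part of transcript length or cDNA length in the heavy chain levels was not tested.

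**Figure D3:**
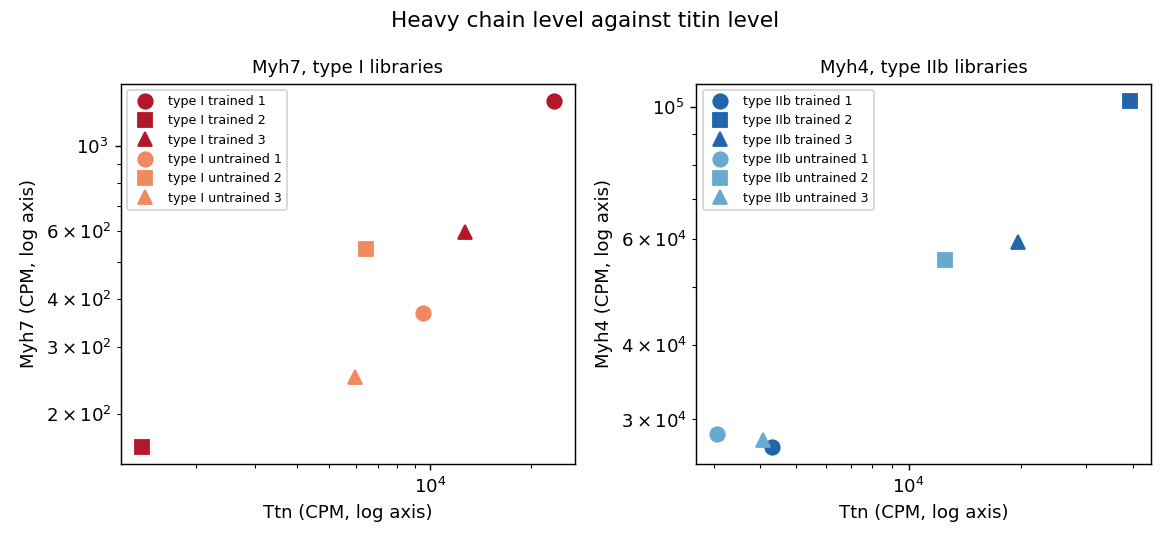
CPM of Myh7 in the 6 type I libraries (left) and of Myh4 in the 6 type IIb libraries (right) against CPM of Ttn in the same library, log axes. Trained library 2 lies lowest in the left panel, at 164 CPM of Myh7, and trained library 2 lies highest in the right panel, at 102235 CPM of Myh4.

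The regulatory light chains that bind the neck of these motors, both short transcripts, gave a ratio within each library. The log2 ratio of Myh7 to Myl2, the slow light chain, by FPKM was -5.44, -9.46 and -4.81 in trained type I fibres, against -6.10, -6.63 and -6.61 in untrained type I fibres (means -6.57 ± 2.53 and -6.45 ± 0.30, SD, n = 3 each, exact permutation p = 1). Trained library 2 stood apart with the lowest Myh7 and the highest Myl2 (25288 CPM) of the type I libraries. Without it, trained fibres were 1.33 log2 units above untrained ones. The direction turned in 2 of the 6 fits that each left out 1 library, so it is not settled by these libraries. The log2 ratio of Myh4 to Mylpf, the fast light chain, was -3.85, -2.41 and -2.04 in trained type IIb fibres, against -4.16, -2.39 and -3.80 in untrained type IIb fibres, a difference of 0.68 (exact permutation p = 0.5, n = 3 each). Leaving out each library in turn gave 0.32 to 1.23.

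Among 17 thick filament and light chain partners of the heavy chains, 14 were tested and none was called for training in either fibre type by edgeR. Between fibre types, 3 were called higher in type I and 3 lower, in untrained and in trained mice alike. Of all tested genes, 0.255% were called higher and 0.204% lower in untrained mice, and 0.238% and 0.298% in trained mice. The median log2 difference of the partners was 0.06 in untrained and -0.78 in trained mice, beside 0.85 and 0.21 over all genes. The higher ones were the slow light chains Myl2 and Myl3 and the M-band protein gene Myom3, and the lower ones were the fast light chains Mylpf and Myl1 and fast myosin-binding protein gene Mybpc2. Myom3 had 490, 78.8 and 350 CPM in trained and 211, 248 and 162 CPM in untrained type I fibres, against 1 count in all type IIb libraries. Mybpc2 had 7 counts over all type I libraries, against 740, 1813 and 1652 CPM in trained and 188, 1022 and 524 CPM in untrained type IIb fibres. Mylpf in type I fibres was lower in each trained library (242, 307 and 112 CPM) than in each untrained one (679, 433 and 329 CPM), with a log2 difference of -1.12 (SE 0.37, unadjusted p = 0.0072, edgeR's adjusted p = 1). Trained libraries lay below in this way for 8.93% of all tested genes. Untrained library 1, with the highest Mylpf, also had the most type II markers of the type I libraries (4507 CPM), and Mylpf is among those markers. The Mylpf difference without that library is not given here. All 9 genes of myosin assembly and turnover, such as the myosin chaperone Unc45b and the ubiquitin ligase Trim63, were tested and none was called in any comparison.

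Of 26 regulators of heavy chain genes, 25 were tested and edgeR called none for training and none between fibre types in untrained mice. In trained mice type I fibres had 1 called higher and 2 lower, beside 0.238% of all tested genes called higher and 0.298% lower. Vgll2, a cofactor of TEAD factors, had 461, 191 and 129 CPM in trained type I, against 7.59, 5.98 and 10.1 CPM in trained type IIb fibres, 24.8-fold higher by pooled counts (edgeR's adjusted p = 0.0272). Tbx15, a transcription factor of fast glycolytic fibres in mouse, had 20.9, 41.9 and 88.4 CPM in trained type I, against 563, 462 and 253 CPM in trained type IIb fibres, 5.97-fold lower (edgeR's adjusted p = 0.0479). In untrained mice their log2 differences were 2.50 for Vgll2 and -1.91 for Tbx15 (edgeR's adjusted p = 0.230 for both). Groups did not overlap there either, as for 27.7% of all tested genes in untrained and 10.5% in trained mice. The third was 2310065F04Rik, a long non-coding RNA gene known in mouse as Linc-MYH. Of 6 class II heavy chain genes outside the sarcomeric set, 4 passed the filter and none was called.

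In the chromosome 11 cluster, the non-coding genes 2310065F04Rik and Myhas were read mainly in type IIb fibres. The gene 2310065F04Rik lies between Myh3 and Myh2 at chr11:67112461-67120080 on the minus strand. It had 0, 0 and 0.0443 CPM in trained type I and 8.06, 0 and 0 CPM in untrained type I fibres, against 475, 210 and 345 CPM in trained type IIb and 549, 459 and 286 CPM in untrained type IIb fibres. In trained mice the log2 difference, type I minus type IIb, was -13.42 on 1 count against 9657 (edgeR's adjusted p = 0.0083), and in untrained mice it was -7.33 on 135 counts against 13930 (edgeR's adjusted p = 0.109). All 135 counts were in untrained library 1, the type I library that also had the most Myh2, Myh1 and type II markers (4507 CPM). By training in type I fibres, its log2 difference was -6.42 (unadjusted p = 0.0040, edgeR's adjusted p = 1), and it rests on that library.

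Myhas lies on the minus strand at chr11:67211256-67237573, with its start next to Myh4, and overlaps Myh1. It had 1 count over all type I libraries, against 3.22, 64.2 and 77.7 CPM in trained type IIb and 0.540, 88.9 and 78.3 CPM in untrained type IIb fibres. Between fibre types it was not called (edgeR's adjusted p = 0.209 in trained and 0.102 in untrained mice), although groups did not overlap. Of all tested genes, 3.77% in trained and 4.88% in untrained mice had all type I libraries below type IIb. The type IIb libraries numbered 1, with the least Myhas, had the most Myh1 (86.0 CPM in trained and 92.2 CPM in untrained fibres), and these were the 2 libraries with the fewest genes of at least 10 counts. In the other 4, Myh1 was 0 to 22.0 CPM. The libraries do not mark strand and 6.98% of the 50-base windows of Myh1 occur on the opposite strand of another gene, so reads of Myh1 and Myhas cannot be told apart where they overlap. On chromosome 14, the antisense gene Mhrt overlaps Myh7 in part and Gm31251 lies within it, with 2 and 13 counts over all 12 libraries. Of the 50-base windows of Myh7, 10.5% occur on the opposite strand of another gene, so the same limit holds for Myh7.

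**Figure D4:**
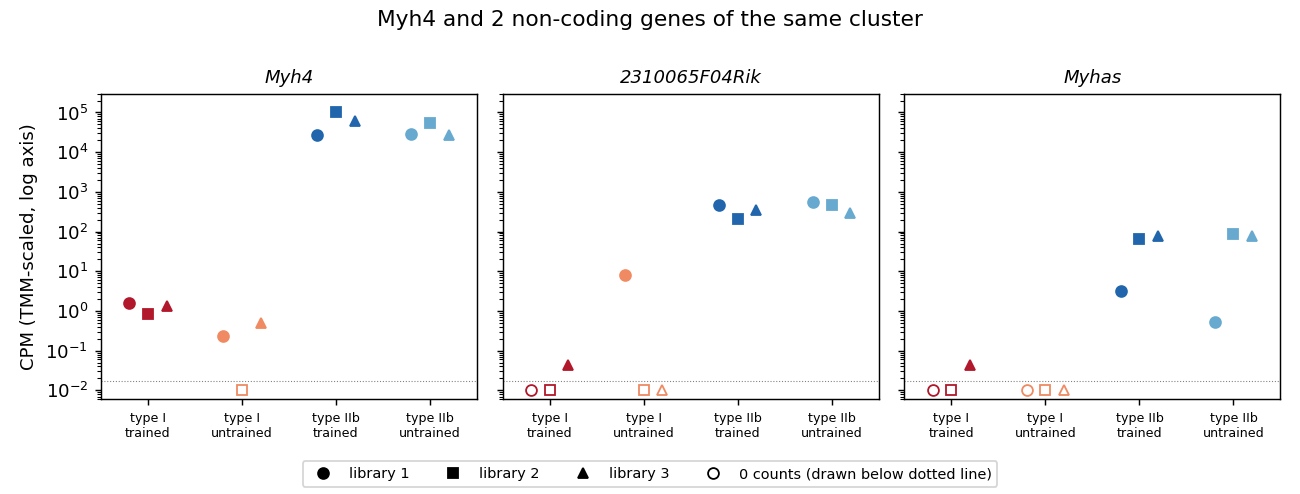
CPM (log axis) of Myh4, 2310065F04Rik and Myhas by group, with one symbol per library number and open symbols below the dotted line for 0 counts. Type I libraries hold no more than 8.06 CPM of 2310065F04Rik, the value of untrained library 1, and type IIb libraries hold 210 to 549 CPM.

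Genes whose level was most like that of a heavy chain were ranked by Pearson's r of log2 CPM, as a description. Over the 6 type I libraries, Cab39 (r = 0.993), Stk40, Nmt1, Brwd1 and Eif5b (r = 0.988) were most like Myh7. Over all 12 libraries, Myom3 (r = 0.998), Gm5532, Cyfip2, Nlrc3 and Rp1 (r = 0.992) were most like Myh7, where the points share the split by fibre type. Over the 6 type IIb libraries, B330016D10Rik (r = 0.999), Cyp2c23, Ralgps1, Nufip1 and 5430405H02Rik were most like Myh4, with median counts of only 7.5 to 24.5 per library. The points of each ranking are the same libraries, with their depth.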

How the data were processed

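The authors deposited raw integer counts of reads for each gene, and FPKM values divided by a gene length and the library total, per the file headers and values. Complementary DNA was made with the SMART-Seq HT kit and libraries with Nextera XT, per the labels' protocols. Per the submitters' processing notes, TopHat2 and mm10 were used, and for counting program, annotation and filters the sources used here give nothing. Libraries were grouped by their titles. No per-sample column was left unused (0).

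Counts were tested with edgeR 4.0.16 in R 4.3.3 (robust quasi-likelihood test, TMM, minimum count 10 and total 15, 1 fit of 12 libraries with a mean per group). Calls were made at an adjusted p under 0.05 (Benjamini-Hochberg, 11747 genes). SE was taken as the size of the log2 difference over the root of edgeR's F. Pooled folds divide group counts by group TMM-scaled library sizes. Shares and ratios of FPKM, with no pseudocount, were compared by exact permutation of 3 against 3 libraries. Alternatives were DESeq2 1.42.0, its size factors in edgeR, no filter, no robust prior, only the groups compared, limma 3.58.1 on log2(FPKM + 1) and log2(FPKM + 0.1), a replicate block and leaving out libraries. Leaving out 3 libraries by endothelial markers or 2 by gene number and the longest-transcript scale were chosen after seeing the data. The edgeR script was tested on simulated data.

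All 8 heavy chains are described. Partners are named where called, and pattern neighbours are the 5 highest correlations. Mylpf in type I fibres and the non-coding genes of the clusters were chosen after their values were seen. The members and lists were chosen with earlier results of these data known. Without molecular identifiers, intervals and floors (3 counts) cover counting error only. Features without an Ensembl identifier took 0.109 to 0.331% of a library.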

Additional observations from a re-analysis of the deposited data

How the results depend on the processing

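Over 148 other fits of comparison values, 134 were labelled the same. For numbers of called genes this meant equal or within 1.5 times, and many of these compare 0 with 0. For shares, sums and ratios it meant the same direction only, with no threshold. The replicate block leaves those differences unchanged, so it could not turn them. edgeR called 2 heavy chains between fibre types, against 6 in untrained and 4 in trained mice with DESeq2 (8.78 and 2.95% of all genes), and 4 and 5 in untrained mice with limma on log2(FPKM + 1) and log2(FPKM + 0.1) (2.80 and 2.61% of all genes). All settings run called 0 for training and for the interaction, for which a fit of only the groups compared was not run. Correlations between libraries of the same number were -0.044 to 0.177. With 3 libraries a group, these cannot show whether the libraries were paired. The replicate block gave 0, 0, 2, 2 and 0 heavy chains in the 5 comparisons and 1.80 for Myh1 by training in type IIb fibres. The cause of changes was not tested.

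Leaving out 1 library gave, trained minus untrained, -3.28 to 0.466 percentage points for the fast share in type I, -0.140 to 0.120 for the non-Myh4 share in type IIb, -86.1 to 492 CPM for the type I sum and -0.9997 to 1.33 log2 units for Myh7 to Myl2. On the log2 scale by training, it gave -0.02 to 1.31 for Myh7, -1.60 to 1.15 for Myh3 and -6.35 to 1.45 for Myh1 in type I, -2.06 to 1.65 for Myh1 in type IIb, -6.21 to 1.58 for the Myh1 interaction and -4.46 to 0.43 for Myh1 between fibre types in untrained mice. Without the 3 libraries of highest endothelial markers, the fast share differed by 0.746 and the non-Myh4 share by 0.0544 percentage points, Myh7 to Myl2 by 0.0652, and log2 differences were 0.95 for Myh1 and 0.86 for Myh3 in type I, 0.24 for Myh1 in type IIb and 0.72 for its interaction. Without the 2 libraries of fewest genes, Myh1 was 0.42 between fibre types in untrained mice. With limma, Myh1 by training in type IIb was 0.011 and 0.78 at the 2 pseudocounts, and the Myh4 interaction -0.24 at 1. With 3 libraries a group, exact tests cannot go below 0.1, and Myh8, Myh4 in type I and Myh2 in trained type I fibres rest on at most 50 counts a group.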
